A study of Homo sapiens with 54 samples.

Results

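Tumour necrosis factor (TNF) at 100 ng/ml was compared with no TNF after 8 h in HT-29 cells, a line from a human colon adenocarcinoma with epithelial features. The comparison took all arrays of the series that were collected at 8 h and held either of these TNF doses, which were 12 of 54 arrays. The cultures with TNF received 100 ng/ml TNF alone, 100 ng/ml TNF with 100 ng/ml epidermal growth factor (EGF), or 100 ng/ml TNF with 500 ng/ml insulin. Those without TNF received nothing further, 100 ng/ml EGF alone, or 500 ng/ml insulin alone. Each of the 6 treatments had 2 arrays, so that 6 arrays with TNF stood against 6 without. All of the cultures, those without TNF included, had first been given 200 U/ml interferon-gamma for 24 h, so every change described here is one in cells already primed with interferon. HT-29 is a single tumour line, and nothing in these arrays shows how other epithelial cells would behave. The whole series holds 9 treatments at 4, 8 and 16 h with 2 replicates each, and it set TNF against the growth factors EGF and insulin in pairs.

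TNF is an inflammatory cytokine that binds a receptor on most cells. Its receptor assembles a complex of adaptors and ubiquitin ligases that frees NF-kB, a family of transcription factors, from the IkB proteins that hold it in the cytoplasm, and NF-kB then turns on genes for chemokines, adhesion molecules and its own inhibitors. The same receptor can form a second complex that activates caspases, and interferon-gamma is known to sensitise HT-29 cells to death by that route, while EGF and insulin act as survival factors. In the gut, epithelial cells answer TNF by releasing chemokines that call neutrophils and lymphocytes to the mucosa.

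RNA was measured on Affymetrix human genome arrays, whose probe sets each report 1 signal for a transcript. Signals here are the deposited linear values, in arbitrary units, and changes are differences of log2(signal + 12.49) between the arrays with TNF and those without, so that a change understates the ratio of genes with low signals. Each change was estimated together with the survival factor and the replicate number by limma over 13422 probe sets, ± is its standard error, n is 6 arrays with TNF and 6 without, and a gene is said to have risen or fallen only where its limma p, adjusted by Benjamini and Hochberg over all 13422 probe sets, was under 0.05. The median signal of the 12 arrays lay between 127.8 and 149.8, and replicates correlated across probe sets by 0.929 to 0.961. Arrays of replicate 2 differed from those of replicate 1 in the ACTB ratio, the signal of probes near the 3′ end over that of probes near the 5′ end, a measure of RNA length. Its log2 was 0.039 to 1.19 in replicate 2 and −0.254 to −0.079 in replicate 1. The highest values were 1.19 in TNF alone and 0.976 in insulin alone, 1 array in each arm. With this ratio as a covariate, a fit chosen after seeing the data, no gene named by rule lost its call, and without both arrays IRF1, MAD2L1, INSIG1 and SLC39A8 lost theirs. Of 11 markers of colon epithelium 9 were measured, among them EPCAM, whose signal was 5093 to 9052 with TNF and 5899 to 10468 without, while CDX1 and CDX2 stayed below the filter, with signals no higher than 34.7. The summed signal of 7 leukocyte markers was 5609 to 8498 with TNF and 4787 to 9466 without. Most of it came from LYZ, whose cell of origin was not tested, and PTPRC was at 6.5 to 43.2 with TNF and 14.5 to 70.7 without. None of 4 fibroblast and 1 endothelial markers measured passed.

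At 8 h the answer to TNF was broad. Of 13422 probe sets 2913 (21.7%) passed, 1094 (8.15%) higher and 1819 (13.6%) lower with TNF. Counted as genes, with 1 probe set for each, 670 of 8105 (8.27%) were higher and 1249 (15.4%) lower, 1919 (23.7%) in all. Fewer genes rose than fell, but 177 genes (2.18%) rose at least 2-fold and 123 (1.52%) fell at least 2-fold. All 6 arrays with TNF lay above all 6 without for 336 genes (4.15%) and below them for 498 (6.14%). The median change over all genes was −0.049. Counts of list members given below stand against these shares of all genes, 8.27% higher and 15.4% lower. In fits of 6 arrays 1593 probe sets were called in replicate 1 alone and 525 in replicate 2 alone.

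**Figure D1:**
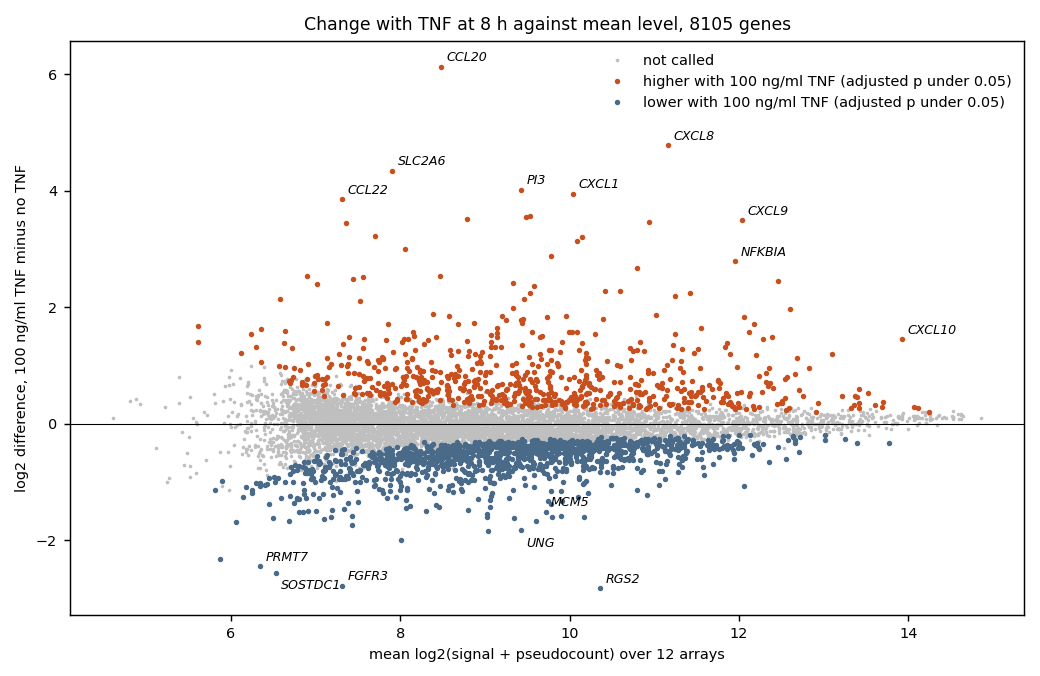
Log2 difference between 100 ng/ml TNF and no TNF at 8 h (vertical) against the mean log2 signal over the 12 arrays (horizontal) for 8105 genes, 1 probe set each. Orange points are the 670 genes higher with TNF, blue points the 1249 lower, and grey points passed in neither direction, and the rises reach 6.13 (CCL20) while the falls reach −2.83 (RGS2).

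Among the genes of the NF-kB system itself, 8 of 11 measured genes rose and none fell, with a median change of 1.27. The list holds NF-kB subunits, IkB proteins and IkB kinase subunits. The largest was NFKBIA, which encodes the IkB-alpha protein that NF-kB induces to limit its own activity. Its signal was 8019.9, 11049.5 and 11859.9 (lowest, median and highest) in the 6 arrays with TNF, against 1391, 1480.3 and 1619 in the 6 without. The ranges lay far apart, and the change was 2.79 ± 0.091 (adjusted p = 2.71e-10). NFKB2 and RELB, the pair of subunits of the non-canonical branch, rose by 2.41 ± 0.24 and 2.25 ± 0.094, and NFKBIE, another IkB gene, rose by 1.86 ± 0.14. RELA, the main activating subunit, rose by 1.28 ± 0.11 and NFKB1 by 1.27 ± 0.13. REL (0.47), CHUK (−0.34) and IKBKG (−0.12) did not pass.

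Of the genes around the TNF receptor, 11 of 19 rose and none fell (median 0.56). TNFAIP3 encodes A20, which removes ubiquitin chains from the receptor complex. Its signal was 2103, 2572 and 3035 with TNF, against 156, 193 and 285 without, a change of 3.56 ± 0.15 (adjusted p = 2.24e-09). TNIP1, a partner of A20, rose by 2.25 ± 0.086, and CYLD, another deubiquitinase, by 1.31 ± 0.12. TNFRSF1B, the second TNF receptor, had signals of 155, 189 and 234 with TNF, against 10.9, 37.7 and 74.8 without, and rose by 2.14 ± 0.36, while TNFRSF1A, the main receptor, rose by 0.62 ± 0.097. The adaptor TRADD (0.017), the kinase MAP3K7 (0.10) and the ligase BIRC2 (0.038) did not pass.

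Chemokines were the group with the largest rises. All 3 measured CC chemokines and 9 of 10 CXC and CX3C chemokines rose, with medians of 3.86 and 3.17. CCL20, which attracts cells that bear CCR6, had signals of 1656, 3369.8 and 4299 with TNF, against 15.5, 28.6 and 70.4 without. This was the largest change of any gene, 6.13 ± 0.27 (adjusted p = 3.36e-09), and the signals without TNF were low. CXCL8, the neutrophil chemokine interleukin-8, had signals of 9879.6, 11376 and 15681 with TNF, against 267, 341 and 977 without, a change of 4.79 ± 0.19 (adjusted p = 1.49e-09). The 2 highest values without TNF were those of the EGF arrays, 563.8 and 977.1.

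CXCL1, CXCL2 and CXCL3, close relatives that also bind the neutrophil receptor CXCR2, rose by 3.95 ± 0.097, 3.13 ± 0.16 and 3.55 ± 0.19. For CXCL1 the signal was 3497, 4231 and 4587 with TNF, against 211, 238 and 339 without. The sequences of these 3 genes are alike, and how far their probe sets share signal was not tested. CX3CL1 (fractalkine), a chemokine held on the membrane, had signals of 2852, 3301 and 4773 with TNF, against 273, 349 and 513 without, a change of 3.21 ± 0.14. CCL22, a ligand of CCR4, had signals of 328, 578 and 961 with TNF, against 20.2, 28.6 and 40.5 without (3.86 ± 0.19), and CXCL6 had 57.2, 117 and 206 with TNF, against 19.0, 32.8 and 45.04 without (1.54 ± 0.27). Without TNF both lay close to background, where the added 12.49 weighs on the size of a change, and the CC median is the value of CCL22. The T cell chemokines that interferon-gamma induces were already high without TNF. CXCL9 had signals of 11589, 14288 and 16477 with TNF, against 1095, 1201 and 1475 without (3.49 ± 0.095), and CXCL10 had 21585, 25728 and 32154 with TNF, against 8170.1, 9308 and 10604 without (1.45 ± 0.085). CCL5 rose by 1.51 ± 0.18 (2.63 ± 0.19 in its other probe set), and CXCL12 (0.18) did not pass.

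Promoters of some of the 15 largest rises are shown because NF-kB binds short GC-framed sites that can be read in them. They were not picked by size of rise alone, and all of those shown hold a match. The sequences are RefSeq promoters of GRCh38.p14, bases −130 to −31 before the annotated start, 5′ to 3′ on the strand of the gene, with each match to GGNNNTTCC on either strand in capitals. The stretches are chr4:73740439-73740538 (plus strand) for CXCL8, chr4:73869263-73869362 (plus) for CXCL1, chr4:74099226-74099325 (minus) for CXCL2, chr4:74038720-74038819 (minus) for CXCL3, chr2:227813712-227813811 (plus) for CCL20 and chr6:137867129-137867228 (plus) for TNFAIP3.
CXCL8: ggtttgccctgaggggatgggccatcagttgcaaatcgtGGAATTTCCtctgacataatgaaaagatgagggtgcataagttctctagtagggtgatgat
CXCL1: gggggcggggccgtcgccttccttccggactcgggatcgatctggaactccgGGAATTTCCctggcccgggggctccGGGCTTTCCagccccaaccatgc
CXCL2: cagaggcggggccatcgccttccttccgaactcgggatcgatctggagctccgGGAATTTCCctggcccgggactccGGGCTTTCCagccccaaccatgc
CXCL3: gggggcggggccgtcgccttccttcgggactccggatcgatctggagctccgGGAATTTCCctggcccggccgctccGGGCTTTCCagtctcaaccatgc
CCL20: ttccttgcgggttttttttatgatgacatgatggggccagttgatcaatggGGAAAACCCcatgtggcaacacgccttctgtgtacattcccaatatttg
TNFAIP3: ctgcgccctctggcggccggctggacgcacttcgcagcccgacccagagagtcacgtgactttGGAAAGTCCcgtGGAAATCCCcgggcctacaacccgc
CXCL8 has 1 such match, from −91 to −83, and the 3 related chemokines share the same letters from −78 to −70 (−77 to −69 in CXCL2) and a second match from −53 to −45. CCL20 has 1 match from −79 to −71 and TNFAIP3 has 2, all on the opposite strand. Over 300 bases around the start the letters occurred in 7 of 12 promoters available for the 15 largest rises, in 2 of 11 for the 15 largest falls and in 7 of 9 for the CXC and CX3C chemokines, against 1557 of 6711 promoters of the genes tested (23.2%) and 5482 of all 27305 (20.1%). A match describes the letters and not binding.

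**Figure D2:**
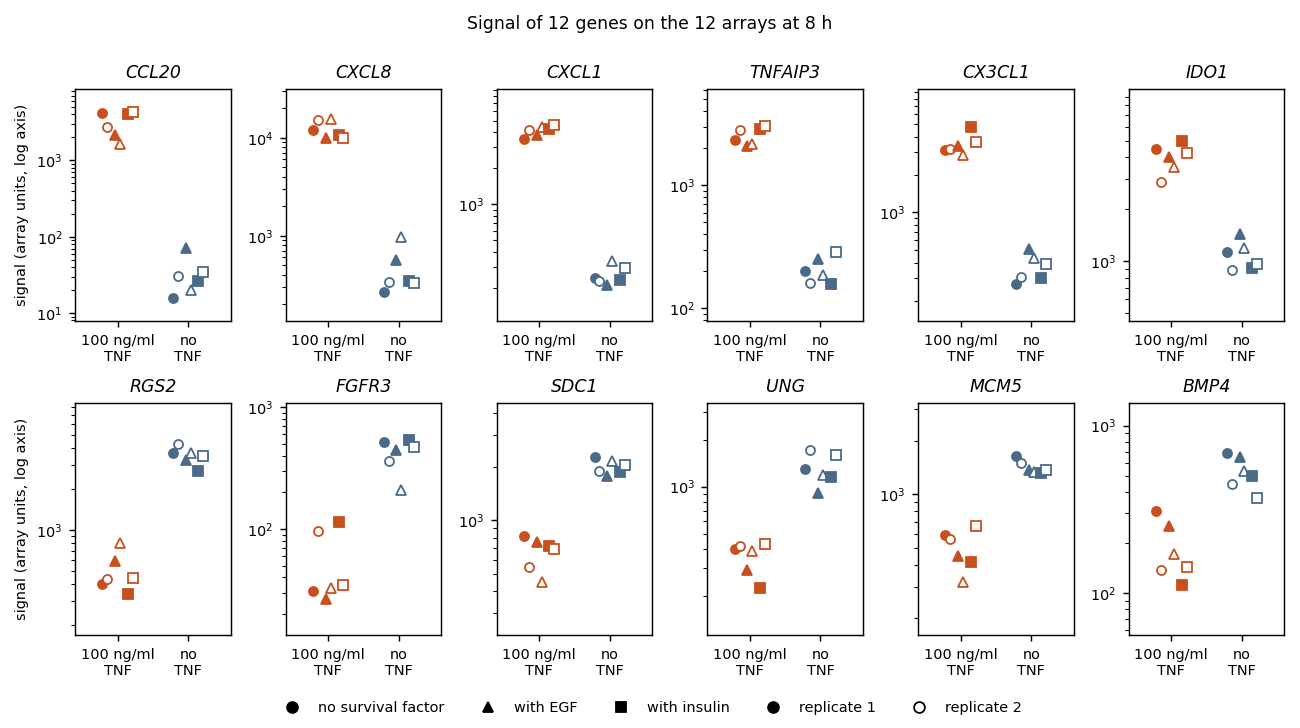
Signal (log axis, arbitrary array units) of 12 genes on each of the 12 arrays at 8 h, with 100 ng/ml TNF on the left of each panel and no TNF on the right. Circles stand for no survival factor, triangles for EGF and squares for insulin, filled for replicate 1 and open for replicate 2, and in every panel the 6 arrays with TNF lie apart from the 6 without.

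Cytokines and surface molecules of inflammation rose as well. Of 15 measured cytokines 9 rose and 1, IL7 (−0.56 ± 0.18), fell (a call lost without the replicate block or both arrays with high ACTB ratios), with a median of 0.90. IL32 had signals of 5833, 5911 and 8822 with TNF, against 367, 641 and 828 without (3.47 ± 0.15). The mRNA of TNF itself rose by 2.39 ± 0.22, from signals without TNF that were close to background (33.0, 40.3 and 81.6), and lymphotoxin-beta (LTB) rose by 2.53 ± 0.22. The macrophage growth factor CSF1 rose by 1.51 ± 0.19. IL6 (0.086) and IL1B (0.66) did not pass. PTGS2, which encodes the prostaglandin enzyme cyclooxygenase-2, had signals of 435, 508 and 1329.98 with TNF, against 39.9, 52.1 and 91.7 without (3.22 ± 0.21).

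Of the adhesion and protease genes, 10 of 17 rose and none fell (median 0.42). ICAM1, to which leukocyte integrins bind, had signals of 10572, 12084 and 15883 with TNF, against 2138, 3441 and 4080.1 without, and rose by 1.98 ± 0.14 (adjusted p = 4.00e-07). VCAM1 rose by 2.11 ± 0.25, the laminin chain LAMB3 by 1.57 ± 0.16 and the integrin chain ITGAV by 1.26 ± 0.11. ITGAM was the only leukocyte marker that passed, at 161.3 to 273 with TNF and 72.7 to 126.4 without (0.99 ± 0.16), while CD14, CD3E, MS4A1 and LYZ did not pass.

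Secreted defence proteins followed, with 5 of 9 mucosal genes and 7 of 9 complement genes higher and none lower. PI3, which encodes the elastase inhibitor elafin, had signals of 2451, 2651 and 3523 with TNF, against 130.2, 155 and 212 without, a change of 4.02 ± 0.13 (adjusted p = 2.71e-10). The other PI3 probe set rose by 2.58 ± 0.097. SERPINA3, WFDC2 and LCN2 rose by 2.49 ± 0.26, 1.20 ± 0.12 and 0.96 ± 0.12, and SLPI (0.003) did not pass. C3, the central complement component, had signals of 327, 596 and 674 with TNF, against 25.2, 40.8 and 48.7 without (3.45 ± 0.17). C1S, CFB and C1R, the proteases of complement, rose by 2.88 ± 0.11, 1.80 ± 0.15 and 1.43 ± 0.14. Further genes among the 15 largest rises were SLC2A6, a hexose transporter of lysosomal membranes, with signals of 786, 1030.4 and 1571 with TNF, against 10.6, 48.0 and 99.3 without (4.35 ± 0.25), and RGCC, a regulator of the cell cycle (3.52 ± 0.28). In the list of glucose genes 1 of 11 rose (SLC2A6) and 1 fell (PFKFB3, −0.44 ± 0.14), against 8.27% and 15.4% of all genes. The PFKFB3 call was lost when any of 8 of the 12 arrays was left out (adjusted p up to 0.101).

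Interferon-related genes rose further in these primed cells. Of 37 genes that type I interferon stimulates 29 rose and none fell, with a median of 0.67. Of 18 targets of interferon-gamma 15 rose and none fell (median 0.81). For 8 of them the ranges did not overlap, with TNF higher, against 4.15% of all genes. IFIH1 and RIGI, sensors of viral RNA, rose by 1.85 ± 0.12 and 1.73 ± 0.12, the nuclease gene ISG20 by 1.64 ± 0.096 and the DNA sensor gene IFI16 by 1.57 ± 0.12. IDO1, which degrades tryptophan, had signals of 2889.6, 4127 and 4975 with TNF, against 893, 1042 and 1439.7 without (1.87 ± 0.12, adjusted p = 1.69e-07). IRF1, a transcription factor that both interferon-gamma and NF-kB induce, was 7407, 8671 and 10678 with TNF and 5632, 7188 and 8200.4 without, ranges that overlapped, and its change of 0.36 ± 0.11 (adjusted p = 0.0309) no longer passed when any of 6 of the 12 arrays was left out (up to 0.0831) or without both arrays with high ACTB ratios (0.0707). IFNB1, the gene of interferon-beta, stayed near background, with signals of 12.4, 17.9 and 34.2 with TNF and 6.50, 12.3 and 17.1 without, and did not pass (0.39 ± 0.49, adjusted p = 0.623).

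Of 19 interferon genes, interferon receptors and signalling genes, 13 rose and none fell (median 0.63). IFNGR2 and IFNGR1, both chains of the interferon-gamma receptor, rose by 2.19 ± 0.11 and 1.57 ± 0.11. IFNAR2, a chain of the type I receptor, rose by 1.83 ± 0.093 and the kinase JAK1 by 1.03 ± 0.12. For IFNGR2 the signal was 4634, 5001 and 6095 with TNF, against 899, 1057 and 1596 without.

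Promoters of 2 genes of this group are shown for the interferon-stimulated response element, here GAAA, any 2 bases and GAAA again, on either strand, in capitals. IFIT3, chosen after its values were seen, rose by 1.20 ± 0.11 and its stretch is chr10:89327867-89327966 (plus strand, bases −130 to −31), and that of IFIH1 is chr2:162318685-162318814 (minus strand, bases −130 to −1), both from RefSeq with GRCh38.p14.
IFIT3: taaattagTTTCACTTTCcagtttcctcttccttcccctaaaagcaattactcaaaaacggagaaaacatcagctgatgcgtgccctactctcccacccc
IFIH1: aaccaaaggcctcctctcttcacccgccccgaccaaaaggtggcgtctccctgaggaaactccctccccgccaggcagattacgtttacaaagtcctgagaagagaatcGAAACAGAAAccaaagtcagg
The letters occurred in 22 of 30 promoters of the type I list, in 1 of 12 of the 15 largest rises and in 212 of 6711 promoters of the genes tested (3.16%).

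Antigen presentation genes moved unevenly. MHC class II genes rose in 10 of 12 cases (median 0.73), and MHC class I and immunoproteasome genes in 7 of 16 (median 0.20), with none lower. HLA-DOB, whose protein tunes peptide loading of class II molecules, had signals of 523, 806 and 931 with TNF, against 49.9, 84.7 and 107 without (3.01 ± 0.19). The class II transactivator CIITA rose by 0.96 ± 0.18, the lysosomal protease CTSS by 1.28 ± 0.12 and HLA-DQB1 by 1.08 ± 0.17. The class I changes were small, at 0.60 ± 0.086 for the peptide transporter TAP1, 0.47 ± 0.096 for TAPBP, 0.47 ± 0.084 for HLA-F and 0.45 ± 0.064 for HLA-E. Another probe set of each of TAPBP, HLA-F and HLA-E did not pass (0.23, 0.29 and 0.13). A further probe set of HLA-F (0.41) and of HLA-E (0.39) did pass. Only 4 class I members passed after quantile normalization or without the replicate block. The immunoproteasome genes PSMB8 (0.041), PSMB9 (0.053) and PSMB10 (−0.069) did not pass. HLA genes are alike in sequence, and how far their probe sets share signal was not tested.

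Death receptor genes mostly rose. Of 10 death receptors, adaptors and initiator caspases 7 rose and 1 fell (median 0.67). CFLAR, which encodes the caspase-8 inhibitor c-FLIP, had signals of 5353, 5536 and 6723 with TNF, against 2094, 2291 and 2638 without, and rose by 1.31 ± 0.078 (adjusted p = 6.44e-08). All 9 of its probe sets rose, by amounts from 0.509 to 1.405, and most of them rose by less than 0.8. TNFRSF10B, a receptor of the death ligand TRAIL, rose by 1.02 ± 0.12, FAS by 0.60 ± 0.087 and CASP8 by 0.66 ± 0.092. FADD, the adaptor that links these receptors to caspase-8, had signals of 724, 915 and 1166 with TNF, against 1355, 1619.9 and 1701 without, and changed by −0.79 ± 0.085 (adjusted p = 2.14e-05). In the BCL2 family 3 of 11 rose and none fell, namely PMAIP1 (1.25 ± 0.12) and BID (0.68 ± 0.078), which promote death, and MCL1 (0.35 ± 0.081), which opposes it. Of 11 other caspases and inhibitors of apoptosis 2 rose and 2 fell, against 8.27% and 15.4% of all genes. CASP6 was lower (−0.79 ± 0.14), and CASP4, XIAP and BIRC5 passed at 0.38, 0.56 and −0.37 but lost their calls when 1 of several arrays was left out (5, 9 and 7 of 12, with adjusted p up to 0.108).

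**Figure D3:**
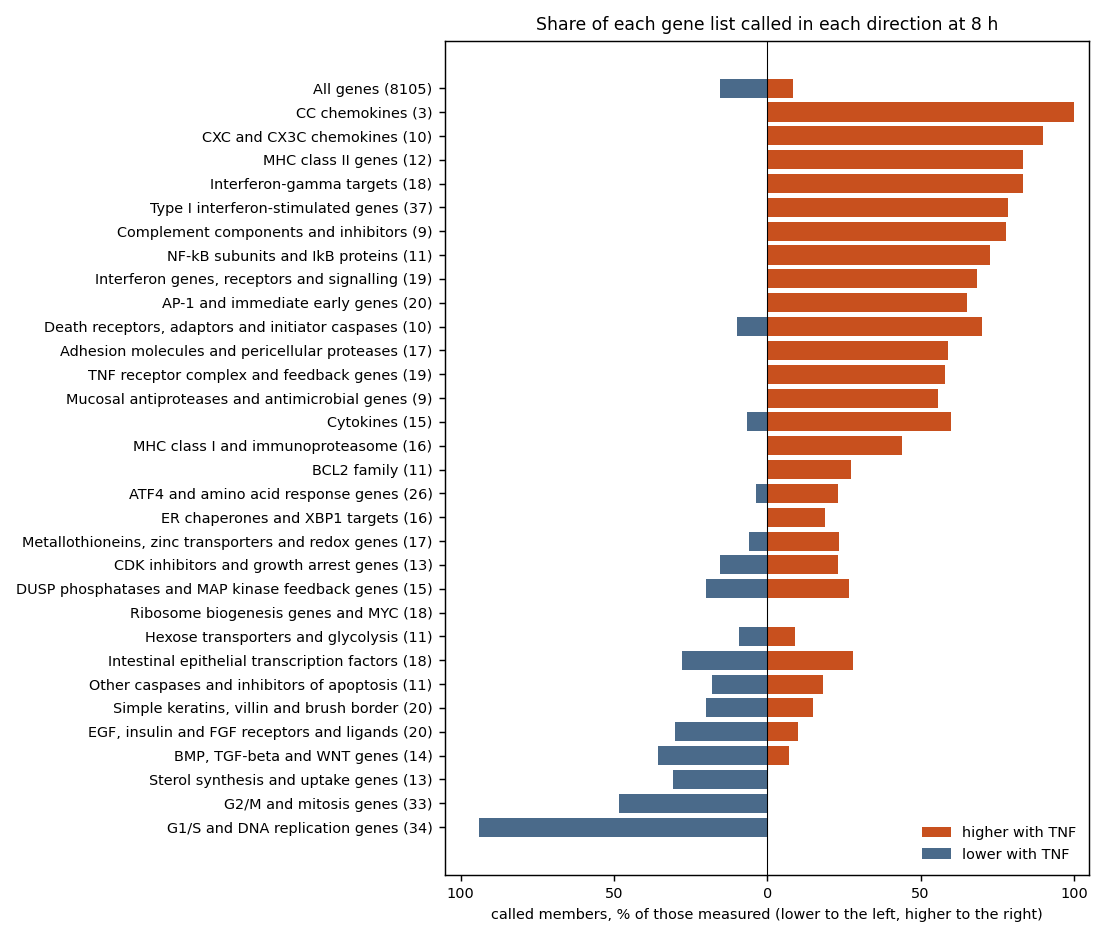
Share of the measured members of each gene list (number in brackets) called higher (orange, to the right) and lower (blue, to the left) with 100 ng/ml TNF at 8 h, in percent, with all 8105 genes in the top bar (8.27% and 15.4%). Chemokine, MHC class II and interferon lists extend to the right, and the G1/S and DNA replication list to the left.

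Genes of DNA replication fell. Of 34 measured G1/S and replication genes 32 fell and none rose (median −0.85), against 15.4% of all genes lower. For 24 of them the ranges did not overlap, with TNF lower, against 6.14% of all genes. In whole cultures fewer cells in S phase and less RNA per cell cannot be told apart. UNG, which removes uracil from DNA, had signals of 224, 394 and 430.5 with TNF, against 906, 1239 and 1717 without, and changed by −1.83 ± 0.12 (adjusted p = 1.50e-07). MCM5, a subunit of the replicative helicase, had signals of 321, 506 and 659 with TNF, against 1315, 1367 and 1631 without (−1.52 ± 0.13). All 6 arrays with TNF were lower than any without for both genes. GINS1, another helicase component, and CDC25A, the phosphatase that opens S phase, changed by −1.60 ± 0.17 and −1.74 ± 0.30, the second from low signals (34.7, 82.5 and 166 with TNF, against 183, 295 and 595 without), and E2F1, a transcription factor of this programme, by −1.19 ± 0.13. The exceptions were CCNE2 (−0.68) and TK1 (−0.28), which did not pass. For CDC25A, the other probe set did not pass (−0.41, adjusted p = 0.122). Repair genes outside the list also stood among the 15 largest falls, with MSH6 at −1.67 ± 0.12, the cohesion factor DSCC1 at −1.85 ± 0.15 and RAD54L at −1.61 ± 0.32, whose ranges overlapped.

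Genes of G2 and mitosis fell in 16 of 33 cases and rose in none, with a smaller median of −0.26, against 15.4% of all genes lower. The ranges were apart, with TNF lower, for 2 of the 33, near the share of all genes (6.14%). FOXM1, their transcription factor, changed by −0.64 ± 0.13, the kinesin KIF11 by −0.56 ± 0.11 and the checkpoint genes BUB1B and MAD2L1 by −0.54 ± 0.10 and −0.52 ± 0.13. The MAD2L1 call was lost without the replicate block (adjusted p = 0.0940) and without both arrays with high ACTB ratios (0.0545). Without the replicate block 9 of these genes passed, and in the arrays of replicate 1 alone 7. CDKN1A, the CDK inhibitor p21, had signals of 1078, 1497 and 2085 with TNF, against 176, 332 and 469.9 without, and rose by 2.15 ± 0.15 (adjusted p = 2.62e-07), and BTG1, which restrains proliferation, rose by 0.74 ± 0.12. Of other p53 targets MDM2 (0.073) and TP53I3 (−0.063) did not pass and SESN1 was lower (−0.72). None of 18 genes of ribosome biogenesis and MYC passed, and MYC itself was 2846, 3778 and 4369 with TNF and 1777, 3014 and 3644 without (0.34 ± 0.12, adjusted p = 0.0544).

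Promoter stretches of CDC25A (chr3:48188448-48188547, minus strand) and of MCM6 (chr2:135876474-135876573, minus strand), a helicase gene picked after its values were seen (−1.23 ± 0.090), show in capitals the letters TTTNNCGC, a site of E2F factors, on either strand, from −130 to −31 (RefSeq, GRCh38.p14).
CDC25A: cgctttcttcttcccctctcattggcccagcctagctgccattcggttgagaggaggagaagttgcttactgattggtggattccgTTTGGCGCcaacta
MCM6: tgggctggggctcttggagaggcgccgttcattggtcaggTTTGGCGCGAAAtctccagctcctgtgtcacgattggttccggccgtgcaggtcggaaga
The capitals in MCM6 are 2 matches on opposite strands that overlap. Among the promoters available, 15 of 28 of the G1/S and replication list held these letters, 3 of 11 of the 15 largest falls and 0 of 12 of the 15 largest rises, against 713 of 6711 promoters of the genes tested (10.6%).

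Immediate early genes mostly rose, and feedback genes of the MAP kinase pathways moved in both directions. Of 20 immediate early genes 13 rose and none fell, among them IER3 (1.39 ± 0.15), the AP-1 subunit FOSL1 (1.21 ± 0.14), ATF3 (1.15 ± 0.15) and ZFP36 (1.09 ± 0.10), which speeds the decay of cytokine mRNA, while FOS (−0.39) and EGR1 (0.23) did not pass. Of 15 MAP kinase phosphatase and feedback genes 4 rose and 3 fell, against 8.27% and 15.4% of all genes. DUSP5, DUSP1 and DUSP6, which inactivate MAP kinases, rose by 1.57 ± 0.10, 1.25 ± 0.18 and 0.93 ± 0.17. RGS2, which switches off G protein signals, showed the largest fall of any gene. Its signal was 335, 439 and 804 with TNF, against 2704, 3589 and 4316 without, a change of −2.83 ± 0.13 (adjusted p = 4.50e-09), and all 6 arrays with TNF lay below all 6 without.

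Growth factor and differentiation genes contained several of the other large falls. FGFR3, a receptor of fibroblast growth factors, had signals of 26.8, 33.7 and 114 with TNF, against 209, 458 and 542 without (−2.78 ± 0.28, adjusted p = 1.00e-05), so that it fell close to background, and the ligand FGF9 and receptor FGFR2 changed by −1.59 ± 0.17 and −0.65 ± 0.15. The other probe set of FGFR3 changed by −0.63 ± 0.20 and that of FGFR2 by −2.03 ± 0.29. Of 20 EGF, insulin and FGF receptors and ligands 2 rose and 6 fell, against 8.27% and 15.4% of all genes. EGFR, the EGF receptor, rose by 0.89 ± 0.12, in 2 of its 5 probe sets. SOSTDC1, a secreted antagonist of BMP and WNT, had signals of 11.1, 23.8 and 52.2 with TNF, against 139.98, 204 and 327 without (−2.56 ± 0.28). BMP4 had signals of 112, 157 and 309 with TNF, against 368, 519 and 683 without (−1.49 ± 0.16). ID2, a target of BMP signals, and DKK1, a WNT antagonist, changed by −1.61 ± 0.12 and −1.33 ± 0.16, and SMAD3 rose by 1.13 ± 0.10. The other ID2 probe set did not pass (−0.91, adjusted p = 0.101). In all 5 of 14 BMP, TGF-beta and WNT genes fell and 1 rose, against 15.4% and 8.27% of all genes.

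Several of the 15 largest falls belonged to none of these groups. PRMT7, an arginine methyltransferase, had signals of 14.4, 18.4 and 38.1 with TNF, against 86.8, 181 and 275 without (−2.45 ± 0.28). EPN3, an endocytic adaptor, had 11.0, 12.5 and 17.8 with TNF, against 39.4, 141 and 196 without (−2.33 ± 0.34). MPPE1, a phosphoesterase of the secretory pathway, changed by −1.99 ± 0.20. It fell in 3 of 3 probe sets, and the others changed by −2.615 ± 0.225 and −1.57 ± 0.331. LIAS, which makes lipoic acid, SERPINH1, a collagen chaperone, and the growth factor gene PDGFC changed by −1.67 ± 0.32, −1.64 ± 0.17 and −1.62 ± 0.099. PRMT7, EPN3, LIAS and SERPINH1 had means over the 12 arrays below the filter threshold. They were kept because at least 1 group mean reached it.

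Among the intestinal transcription factors 5 of 18 rose and 5 fell, against 8.27% and 15.4% of all genes. CEBPD and CEBPB rose by 1.35 ± 0.17 and 0.47 ± 0.079, whereas CEBPA, a factor of differentiation, fell to 32.0, 53.8 and 88.4 with TNF, against 136, 160.3 and 188 without (−1.37 ± 0.25). ISL1 and the goblet cell factor SPDEF changed by −1.16 ± 0.12 and −1.01 ± 0.15. Other SPDEF probe sets changed by −1.31, −1.60, 0.079 and 0.36, of which those above 0 did not pass. Of 20 keratin, villin and brush border genes 3 rose and 4 fell, shares near those of all genes (8.27% and 15.4%). VIL1, which bundles actin in microvilli, was 219, 347 and 419.6 with TNF, against 471, 597 and 729.9 without (−0.84 ± 0.11), KRT19 changed by −0.60 ± 0.095, and the membrane mucin MUC1 rose by 0.88 ± 0.12. COBL passed at −1.02 ± 0.28 but not when any of 4 arrays was left out (adjusted p up to 0.0658).

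In the stress and metabolic lists most members did not pass. Their counts stand against 8.27% of all genes higher and 15.4% lower. Of 26 ATF4 and amino acid response genes 6 rose and 1 fell (median 0.16). Those that rose included VEGFA (1.27 ± 0.13), which encodes an angiogenic factor, ATF5 (0.81 ± 0.13) and the amino acid transporter SLC38A2 (0.52 ± 0.12). Of 16 endoplasmic reticulum genes 3 rose, DNAJB9 (1.01 ± 0.18), HERPUD1 (0.66 ± 0.11) and HYOU1 (0.34 ± 0.073). Sterol genes fell in 4 of 13 cases, INSIG1 (−0.70 ± 0.19), LSS (−0.49 ± 0.12), IDI1 (−0.33 ± 0.080) and DHCR7 (−0.33 ± 0.096). The INSIG1 call was lost without both arrays with high ACTB ratios (adjusted p = 0.0690). That of DHCR7 was lost without any of 6 arrays (adjusted p up to 0.0745). Another probe set of each of INSIG1, LSS and DHCR7 did not pass (−0.22, −0.29 and 0.01). Among 17 metallothionein, zinc and redox genes 4 rose and 1 fell, with the oxidase NOX1 at 0.81 ± 0.18 (not called without the replicate block, adjusted p = 0.1), TXNRD1 at 0.36 ± 0.065, and GCLM (0.37) and SLC39A8 (−0.59) losing their calls without any of 8 and 5 arrays (adjusted p up to 0.1). GADD45A was lower (−0.88 ± 0.25), a call lost without any of 7 arrays (up to 0.0697).

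Whether the survival factors altered the answer to TNF was asked by comparing the TNF effect with EGF, with insulin and alone. By limma's F test over both differences 0 of 13422 probe sets (0%) passed, although 1244 (9.27%) had an unadjusted p under 0.05. The difference between the effect with EGF and alone passed for 0 probe sets (696 unadjusted, 5.19%), and that between the effect with insulin and alone for 5 (0.0373%, and 1364 unadjusted, 10.2%). Those 5 were 3 probe sets of TXNIP, an inhibitor of thioredoxin that glucose induces, and 1 each of ASNS, which makes asparagine, and APP. ASNS had signals of 7864 and 7510.1 with TNF and insulin, against 3776 and 4093 with insulin alone, and 3594 and 3939 with TNF alone, against 4227 and 4349.8 in untreated cells. TNF effects for ASNS were thus −0.19 alone, −0.40 with EGF and 0.96 with insulin, and the difference with insulin was 1.15 (adjusted p = 0.0444). APP had effects of −0.83 alone, 0.32 with EGF and 1.15 with insulin (difference with insulin 1.98, adjusted p = 0.0272), and the TXNIP probe set with the highest signal had −0.68 alone, −0.46 with EGF and 1.06 with insulin (difference 1.75, adjusted p = 0.0415). IER3 and DDIT4, the next by the F test (adjusted p of 0.0913 for each), had 1.40 alone, 0.79 with EGF and 1.98 with insulin, and 0.26 alone, −0.10 with EGF and 1.44 with insulin.

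These calls depended on which arrays were included. None remained without both arrays with high ACTB ratios, where the difference was 1.33 for ASNS (adjusted p = 0.283) and 1.95 for APP (adjusted p = 0.271). Leaving out 1 array at a time gave 0 to 22 probe sets, with 22 without TNF alone replicate 1, 6 without insulin replicate 1, 2 or 3 without any EGF array or TNF with insulin replicate 2, and 0 without any of the others. No difference passed for the largest rises. For CXCL1 the effects were 3.96 alone, 3.88 with EGF and 4.02 with insulin, and for TNFAIP3 3.74 alone, 3.22 with EGF and 3.73 with insulin. CXCL8 showed 5.43 alone, 4.04 with EGF and 4.89 with insulin, where EGF cultures without TNF had higher signals, and the difference with EGF of −1.39 had an adjusted p of 0.937. By treatment 792 probe sets (5.9%) passed for TNF alone, 818 (6.09%) with EGF and 1680 (12.5%) with insulin, counts whose difference was not tested.

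**Figure D4:**
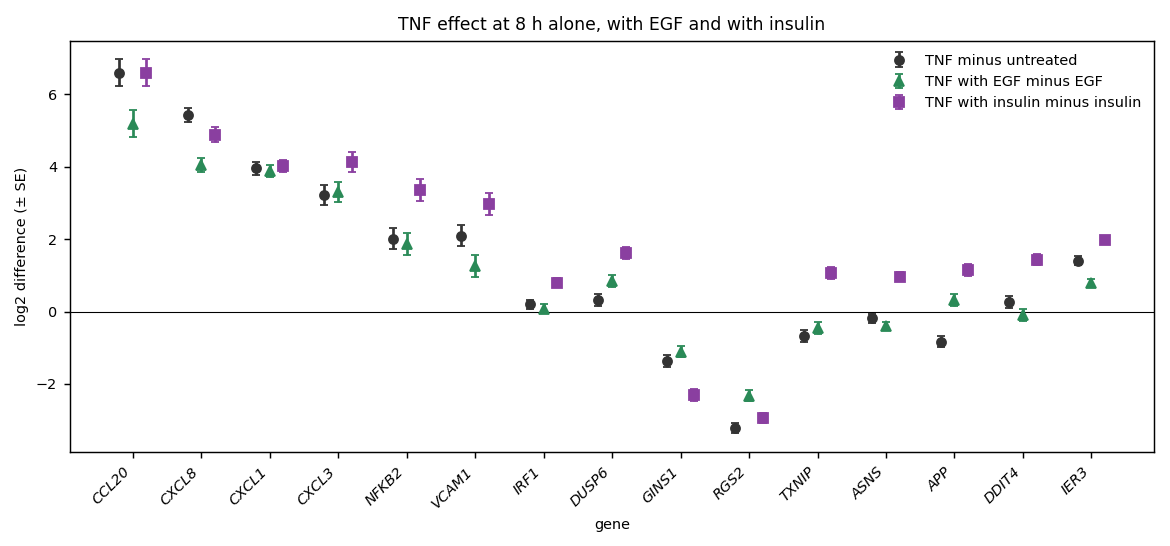
TNF effect at 8 h as the log2 difference between TNF and its own control (vertical, ± SE) for 15 genes, with TNF minus untreated as circles, TNF with EGF minus EGF as triangles and TNF with insulin minus insulin as squares. For TXNIP, ASNS and APP the insulin points lie above both others (1.06 with insulin against −0.68 alone for TXNIP), and the CCL20 and CXCL8 points with EGF lie below the others.

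Set against the other times, in a fit of 36 arrays, the TNF effect at 8 h differed from that at 4 h for 393 probe sets (2.93%) and from that at 16 h for 1150 (8.57%). Without the replicate block these were 200 and 716. As genes these were 275 (3.39%) and 779 (9.61%), of which 147 (1.81%) had a more positive and 128 (1.58%) a more negative effect at 8 h than at 4 h, and 389 (4.8%) a more positive and 390 (4.81%) a more negative one at 8 h than at 16 h. Of the 670 genes higher at 8 h, 76 had a larger and 7 a smaller effect than at 4 h, and 95 rose more and 79 less at 16 h. Of the 1249 lower genes, 106 fell more and 9 less than at 4 h, and 98 fell more and 103 less at 16 h. These genes were chosen on their 8 h values, which enter the differences too.

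Effects that were largest at 8 h, by differences called against both 4 h and 16 h, were found for 7 genes that rose (0.0864%) and 14 that fell (0.173%). CXCL1 had effects of 3.07 at 4 h, 3.95 at 8 h and 2.34 at 16 h. NNMT, which methylates nicotinamide, had 0.82 at 4 h, 1.45 at 8 h and 0.90 at 16 h, with signals of 7232, 8517 and 8782 at 8 h with TNF, against 2092, 2903 and 4712 without. The circadian repressor gene NFIL3 had −0.014 at 4 h, 0.62 at 8 h and 0.013 at 16 h, and SNTB2 and PGCKA1 had effects of 0.69 and 0.52 at 8 h. Among those that fell, the surface proteoglycan SDC1 had −0.46 at 4 h, −1.60 at 8 h and −1.06 at 16 h, and its signal at 8 h was 452, 703 and 817 with TNF, against 1763, 1968 and 2281 without. PRMT7 had −0.81 at 4 h, −2.45 at 8 h and −0.50 at 16 h and MPPE1 −0.53 at 4 h, −1.99 at 8 h and −0.58 at 16 h. CCDC85B and the periplakin gene PPL had −1.59 and −1.40 at 8 h.

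Other genes had their larger effect later. The type I interferon list had medians of 0.20 at 4 h, 0.67 at 8 h and 1.74 at 16 h. Of its 37 members 14 had a more positive effect at 8 h than at 4 h, against 1.81% of all genes. For 29 of the 37 the effect was less positive at 8 h than at 16 h, against 4.81% of all genes. IFNB1, which had not passed at 8 h, had effects of 0.078 at 4 h, 0.39 at 8 h and 5.00 at 16 h, and its 8 h effect was smaller than that at 16 h (difference −4.61, adjusted p = 8.33e-09). IFI16, CCL5 and VCAM1 had effects of 1.57, 1.51 and 2.11 at 8 h and of 3.60, 4.44 and 4.08 at 16 h. CCL20 ran the other way, with 5.07 at 4 h, 6.13 at 8 h and 1.42 at 16 h, and TNFAIP3 had 3.43 at 4 h, 3.56 at 8 h and 3.56 at 16 h, differences that did not pass.

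The G1/S and replication list had medians of −0.25 at 4 h, −0.85 at 8 h and −1.31 at 16 h. UNG had effects of −0.49 at 4 h, −1.83 at 8 h and −1.55 at 16 h and MCM5 of −0.31 at 4 h, −1.52 at 8 h and −2.03 at 16 h. RGS2 had −0.80 at 4 h, −2.83 at 8 h and −3.38 at 16 h, a larger fall at 8 h than at 4 h (adjusted p = 2.35e-05). BMP4 changed direction, with effects of −3.13 at 4 h, −1.49 at 8 h and 1.22 at 16 h, and FADD, lower at 4 h and 8 h, had −1.05 at 4 h, −0.79 at 8 h and 0.072 at 16 h.

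**Figure D5:**
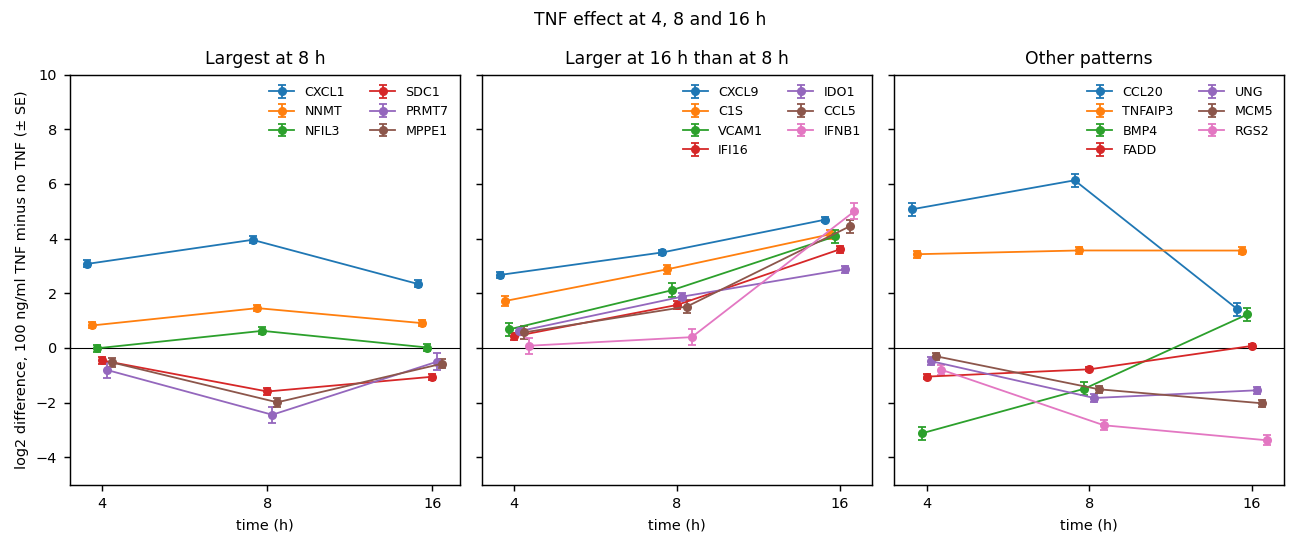
TNF effect (log2 difference between 100 ng/ml TNF and no TNF, ± SE, from the fit of 36 arrays) at 4, 8 and 16 h. The left panel holds genes largest at 8 h, the middle panel genes larger at 16 h, where IFNB1 reaches 5.00, and the right panel other patterns, where CCL20 reaches 6.13 at 8 h and BMP4 passes from −3.13 to 1.22.

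The 6 arrays at 8 h with 5 ng/ml TNF (alone, with 1 ng/ml EGF or with 5 ng/ml insulin) differ from those at 100 ng/ml in the amounts of EGF and insulin as well, so their values are set side by side without a comparison. CXCL8 had signals of 9879.6, 11376 and 15681 at 100 ng/ml, 6973, 7378 and 14027 at 5 ng/ml and 267, 341 and 977 without TNF. RGS2 had 335, 439 and 804 at 100 ng/ml, 946, 1015 and 1299.96 at 5 ng/ml and 2704, 3589 and 4316 without TNF, and MCM5 had 321, 506 and 659 at 100 ng/ml, 673, 711 and 852 at 5 ng/ml and 1315, 1367 and 1631 without TNF. IDO1 had 2889.6, 4127 and 4975 at 100 ng/ml, 3809.8, 4175 and 4660.5 at 5 ng/ml and 893, 1042 and 1439.7 without TNF.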

How the data were processed

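Signals came from 54 arrays of HT-29 cells, and 12 of them, those at 8 h with 100 or 0 ng/ml TNF, are compared here. Per the submitters' processing notes the values were made with MAS5, and the deposited values are linear intensities. Every array had a 2% trimmed mean of 500.17 to 500.22, so no scaling was added. Of 22283 probe sets 68 controls were left out. A value of 12.49, the 10th percentile of all signals, was added before log2, and a probe set was kept if at least 1 of 27 group means was no lower than 7.24, the overall median of log2 signals (138.9 before log2), which left 13422 of 22215. The platform table named 19065 probe sets by 1 symbol, 1043 by more and 2107 by none, so that 11913 kept probe sets stood for 8105 genes. Each gene is described by its kept probe set with the highest mean over the 12 arrays, and probe sets of 2 genes were called in opposite directions.

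The TNF effect was fitted with limma 3.58.1 in R 4.3.3 (lmFit, eBayes with an intensity trend) with survival factor and replicate number as covariates, with 7 residual and 6.47 prior degrees of freedom. The interaction used means of the 6 groups with the replicate block, and the comparison of times used 36 arrays with survival factor and replicate within time. P was adjusted by Benjamini and Hochberg, and the threshold was 0.05. The procedure was tested on simulated data. The replicate numbers come from the labels. At 8 h the differences between replicates correlated by 0.331 to 0.576 (median 0.416) between all 15 pairs of the 6 groups, so the numbers were taken to pair arrays. Correlations were weaker at 4 h (0.021 to 0.402, median 0.243) and at 16 h (0.009 to 0.288, median 0.202). The series describes its replicates as biological duplicates, and the number of arrays limits the precision. Named genes were the 15 largest rises and falls among called genes with 1 sign in 6 of 6 pairs, up to 4 members of each list with the largest change, 17 of 18 set genes that were measured, the 5 smallest interaction p and up to 5 genes in each direction largest at 8 h, and other list members are named as examples after their values were seen. The comparison, the lists and these rules were chosen with earlier results of these data known.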

Additional observations from a re-analysis of the deposited data

Results flagged for a closer look

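Within each arm of 6 arrays, Dixon's test asked whether 1 array stood far from the rest, which chance alone meets in about 1 of 20 groups, and it did in 9 of 282 tests, over the genes named by rule and 2 RNA quality ratios. With TNF these were the log2 ACTB ratio (1.19 in TNF alone replicate 2) and the signals of PI3 (3523.5 in TNF alone replicate 1), FOXM1 (1503 in TNF alone replicate 2), MAD2L1 (917 in TNF with insulin replicate 1) and DNAJB9 (889 in TNF with insulin replicate 1). Without TNF they were the signals of TNIP1 (1574 in untreated replicate 1), HLA-DQB1 (223 in insulin replicate 2), TXNRD1 (4279.8 in untreated replicate 2) and PGCKA1 (938 in insulin replicate 1).

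The effect of TNF differed between 8 h and 4 h for 393 probe sets, between 8 h and 16 h for 1150, and between cultures with insulin and without a survival factor for 5. Among the genes named by rule, the effect with insulin minus that alone (log2) was 1.15 for ASNS, 1.98 for APP and 1.75 for TXNIP. The 8 h effect minus the 4 h effect was positive for BMP4 (1.63), VCAM1 (1.43), C3 (1.32), CCL22 (1.30), IDO1 (1.26), C1S (1.17), IFI16 (1.15), RIGI (0.95), CXCL1 (0.88), CXCL9 (0.82), CFB (0.74), C1R (0.70), NFIL3 (0.64), NNMT (0.63), IFIH1 (0.62), ITGAV (0.58), SNTB2 (0.57) and PGCKA1 (0.51). It was negative for RGS2 (−2.04), FGFR3 (−2.005), PRMT7 (−1.64), RAD54L (−1.57), MPPE1 (−1.46), UNG (−1.34), MCM5 (−1.21), GINS1 (−1.15), SDC1 (−1.14), DSCC1 (−1.06), CCDC85B (−0.996), PPL (−0.95), PDGFC (−0.90), CEBPD (−0.89), MSH6 (−0.84), SPDEF (−0.74) and KRT19 (−0.51). The 8 h effect minus the 16 h effect was positive for CCL20 (4.71), CXCL3 (2.08), CXCL2 (1.68), CXCL1 (1.61), VIL1 (1.599), IER3 (1.26), SERPINA3 (1.22), VEGFA (1.16), ATF3 (1.10), PTGS2 (1.03), DUSP1 (1.02), PI3 (0.89), HERPUD1 (0.85), DUSP6 (0.83), ZFP36 (0.76), SLC39A8 (0.71), PGCKA1 (0.71), TNFRSF10B (0.66), IFNGR1 (0.63), NFIL3 (0.61), SNTB2 (0.61), MYC (0.58), NNMT (0.55) and KIF11 (0.53). It was negative for IFNB1 (−4.61), CCL5 (−2.93), BMP4 (−2.72), IFI16 (−2.03), VCAM1 (−1.96), PRMT7 (−1.95), MPPE1 (−1.42), C1S (−1.28), CXCL9 (−1.20), INSIG1 (−1.14), SERPINH1 (−1.12), C3 (−1.11), CFB (−1.10), RIGI (−1.09), HLA-DOB (−1.06), SLC2A6 (−1.02), IDO1 (−0.998), C1R (−0.97), WFDC2 (−0.91), MUC1 (−0.90), FADD (−0.86), PPL (−0.71), CCDC85B (−0.63), LSS (−0.62), SDC1 (−0.54) and TAPBP (−0.45). BMP4, INSIG1 and some other listed genes, FADD and MYC among them, had effects of opposite sign at 8 h and 16 h. For FADD the 16 h effect was close to 0. These differences had a limma adjusted p under 0.05, and genes named as largest at 8 h, such as NNMT, are listed because the rule that named them required it.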

How the results depend on the processing

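The count of probe sets called for TNF at 8 h was 2913. It stayed within 1.5 times of this under 10 other settings of scaling, filter, pseudocount, trend, block and fit named here (2037 with no replicate block, all of them among the 2913, to 3719 with all 54 arrays) and without both arrays with high ACTB ratios (2644), and was 3312 with the ACTB ratio as a covariate, an alternative chosen after seeing the data. Leaving out 1 array gave 2344 to 2777. Fits of fewer arrays or single treatments, which have less data by construction, gave 1593 with replicate 1 alone, 525 with replicate 2 alone, 792 for TNF alone, 818 with EGF and 1680 with insulin. The share of higher calls was 37.6%, 42.3% after quantile normalization and 35.3% after median centring. The interaction F test gave 0 calls, 5 with a pseudocount of 50, 1 after quantile normalization and 5 after median centring, and 0 to 8 with 1 array left out. For the insulin difference 5 calls became 0 with no replicate block, with no filter, with no intensity trend and without both arrays with high ACTB ratios, 3 after quantile normalization, and 0 to 22 with 1 array left out. The 393 and 1150 calls between times were 200 and 716 with no replicate block, and 294 to 385 and 965 to 1169 with 1 array left out. Calls of genes named by rule were lost with no replicate block for IRF1, XIAP, CASP4, BIRC5, MAD2L1, DHCR7, PFKFB3, NOX1 and GCLM, and without both arrays with high ACTB ratios for IRF1, MAD2L1, INSIG1 and SLC39A8, while the ACTB covariate ended none of them and added MYC and DDIT4. Single genes turned in direction in single treatments for IFNB1 with EGF (−0.005), XIAP alone (−0.108), GCLM alone (−0.061), GADD45A with insulin (0.21), DDIT4 with EGF (−0.104), ASNS alone (−0.19) and with EGF (−0.40), APP alone (−0.83) and TXNIP with insulin (1.06), of which APP (adjusted p = 0.0111) and TXNIP (adjusted p = 0.00178) passed there. ASNS and TXNIP, whose effects over all treatments were close to 0, also turned without certain arrays (with 1 array left out, −0.008 to 0.218 for ASNS and −0.252 to 0.085 for TXNIP), and TXNIP in replicate 1 alone (0.109) and after quantile normalization (0). Counts of higher members moved by over 1.5 times for interferon-gamma targets (9 in replicate 1 alone), MHC class II (6 in replicate 1 alone), MHC class I (4 after quantile normalization and with no replicate block, 2 in replicate 1 alone), other caspases and inhibitors of apoptosis (0 with no replicate block and in replicate 1 alone), endoplasmic reticulum genes (5 without both ACTB arrays), growth factor genes (1 with no replicate block) and metallothionein and redox genes (1 with no replicate block and in replicate 1 alone). Counts of lower members did so for G2 and mitosis (9 with no replicate block, 7 in replicate 1 alone), other caspases (1 in both of these), cytokines (0 in both and without both ACTB arrays), glucose genes (0 in both and after quantile normalization), ATF4 genes (0 with no replicate block and after quantile normalization), CDK inhibitors and p53 targets (1 in replicate 1 alone), epithelial transcription factors (3), sterol and brush border genes (2 each), all in replicate 1 alone, and metallothionein and redox genes (2 after quantile normalization and by the probe set with the smallest p, 0 in replicate 1 alone and without both ACTB arrays). Replicate 1 alone and the ACTB arrays were added for lists after seeing the data. Where no construction is named, the cause was not tested. Signals near background in 1 arm (a median under 60) limit the folds of CCL20, SLC2A6, CCL22, C3, PTGS2, LTB, TNF, TNFRSF1B, CXCL6, FGFR3, SOSTDC1, PRMT7, EPN3, LIAS, CEBPA and COBL, among others. A filter on the 12-array mean left out SOSTDC1, PRMT7, EPN3, LIAS, SERPINH1, RAD54L, CEBPA, COBL, LTB, TNF, TNFRSF1B and IFNB1. The filter used here kept these genes because at least 1 group mean was high enough.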
